A study of Equus caballus with 4 samples.

Results

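The genes described here build the apparatus by which a skeletal muscle cell releases calcium for contraction and takes it back. Of the 10 genes looked for (RYR1, CACNA1S, CACNB1, CASQ1, CASQ2, ATP2A1, ATP2A2, TRDN, SLN and JPH1), 5 had array probes that carried exactly their symbol (ATP2A1, ATP2A2, CACNB1, CASQ1 and TRDN, 10 probes of 43603 in all). Another 4 genes (RYR1, CACNA1S, CASQ2 and JPH1) had 24 probes that the array lists under a transcript identifier, with the gene named only in the description. They are reported as genes named by description and are counted apart. SLN, which encodes a small inhibitor of the uptake pump, was found under neither name and was not analysed here.

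Equine satellite cells (ESC), the stem cells of muscle, from m. semitendinosus were at day 3 of differentiation into muscle cells. The treated ESC received GO at 0.125 µM during 24 h, with H2O2 at 3 mM in the last 1 h. GO is gamma-oryzanol, a feed supplement obtained from rice bran oil and composed of ferulic acid esters. The control ESC received no GO. The labels do not say whether the control received H2O2, whereas the study's methods describe it as exposed to H2O2, so that the comparison is of GO if those methods hold and of both agents if they do not. Each of 4 arrays held treated RNA in red (Cy5) and control RNA in green (Cy3), and no array had the dyes exchanged. The effect of the dye and the effect of the treatment therefore cannot be told apart on any array. According to the methods the muscle came from young stallions and the best primary line was chosen, so that p-values measure the spread between these cultures and not between animals.

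In skeletal muscle the depolarised surface membrane is sensed by the L-type channel (CACNA1S with its beta subunit CACNB1), which opens the ryanodine receptor RYR1 in the membrane of the sarcoplasmic reticulum. Junctophilin (JPH1) holds both membranes together, and triadin (TRDN) ties the release channel to calsequestrin (CASQ1 and CASQ2), the calcium store protein. The SERCA pumps (ATP2A1 in fast fibres, ATP2A2 in slow fibres, heart and non-muscle cells) return calcium to the store. Apart from ATP2A2, most of these genes are switched on as satellite cells fuse and mature.

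All probes were 60 bases long. The following are those on which the results turn, written 5′ to 3′ as the array files give them. The 3 RYR1 probes are shown because they overlap and are not independent measurements: capitals mark the 22 bases that 5 neighbouring RYR1 probes share.

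RYR1 A_69_P002595: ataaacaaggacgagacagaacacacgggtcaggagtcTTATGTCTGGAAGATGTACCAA
RYR1 A_69_P002592: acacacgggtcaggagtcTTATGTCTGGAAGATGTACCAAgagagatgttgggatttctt
RYR1 A_69_P002591: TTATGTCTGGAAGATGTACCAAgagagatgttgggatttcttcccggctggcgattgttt

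The single CASQ1 probe is shown for its repetitive sequence. Capitals mark an unbroken run of 42 bases made of GAT and GAC, the codons of aspartate, which calsequestrin carries at its calcium-binding tail. This run was found in 1 of 43603 probes, searched on both strands, and the longest stretch that the whole probe shared with a probe of another gene was 15 bases (PLEKHF2).

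CASQ1 A_69_P074726: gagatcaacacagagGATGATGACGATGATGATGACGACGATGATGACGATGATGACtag

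The brightest probes of ATP2A1, CACNB1, JPH1 and CASQ2 are shown because the calls, or the comparison of isoforms, rest on a single probe of each. None of them shared more than 14 bases in a row with a probe of another gene.

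ATP2A1 A_69_P018781: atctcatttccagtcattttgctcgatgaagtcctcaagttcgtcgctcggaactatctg
CACNB1 A_69_P033491: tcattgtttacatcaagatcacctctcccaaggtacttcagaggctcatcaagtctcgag
JPH1 A_69_P043396: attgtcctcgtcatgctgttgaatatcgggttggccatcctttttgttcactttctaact
CASQ2 A_69_P076341: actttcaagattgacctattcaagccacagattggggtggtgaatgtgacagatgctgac

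Of the 5 genes named by symbol, ATP2A1, CASQ1 and CACNB1 rose with GO and H2O2, while ATP2A2 and TRDN did not pass the test. Of the 4 genes named by description, RYR1 and JPH1 rose, and CASQ2 and CACNA1S did not pass. No gene of either set passed in the lower direction. The changes were small, the highest being 1.39-fold. A gene passed where its brightest probe had an adjusted p under 0.05 in limma with Benjamini-Hochberg adjustment over all 24230 tested probes. Over those probes 9.49% passed as higher, 7.59% as lower and 17.1% in either direction.

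The median log2 ratio (red over green, treated over control) of the 5 genes named by symbol was 0.19, beside 0.0030 over all tested probes. On replicates 1 to 4 the median of the 5 genes was 0.30, 0.11, 0.11 and 0.22. CACNB1 was the middle gene on every array, so that this median restates the values of its single probe. The calls depended on which arrays were used: with replicate 1, 3 or 4 left out, 0 of the 5 genes passed in limma, whereas all 3 had an unadjusted p under 0.05 each time, and with replicate 2 left out 3 passed. The same held for the genes named by description, of which 0 passed without replicate 1, 3 or 4, with 2 at an unadjusted p under 0.05, and 2 passed without replicate 2. Over all probes 4137 passed with 4 arrays, and 2, 3899, 38 and 0 (0.00825%, 16.1%, 0.157% and 0%) passed without replicates 1, 2, 3 and 4. Median centring in place of loess, with 0.0495% of all probes called, and the methods' t-test with adjustment, with 0.0206%, also left 0 of these genes past the threshold. In bulk RNA a change in the share of cells of a kind and a change of RNA in each cell cannot be told apart.

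**Figure D1:**
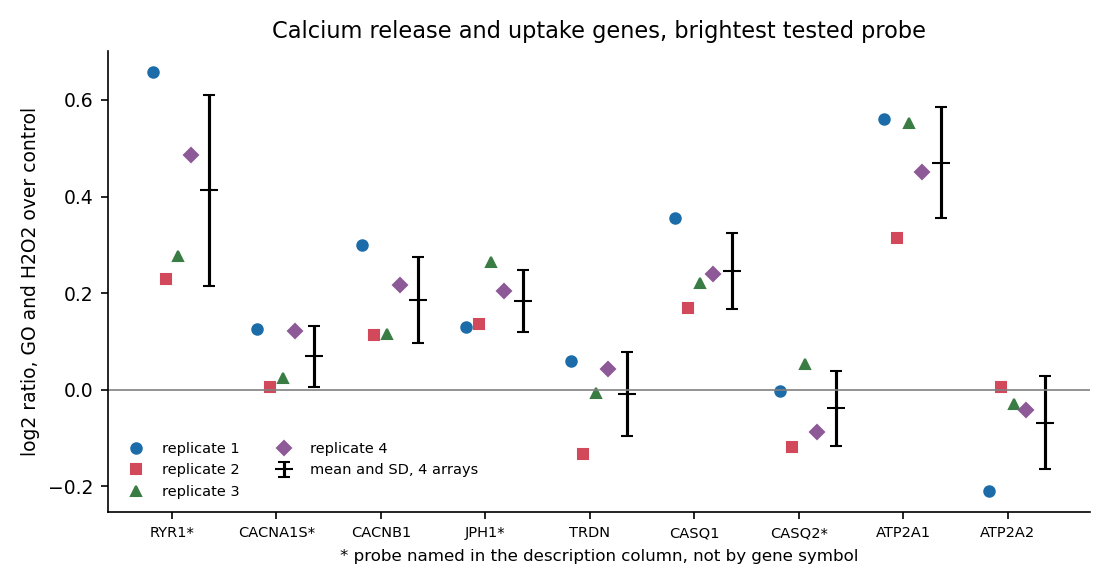
Log2 ratio of treated over control ESC (y axis) for the brightest tested probe of each gene (x axis), with a marker for each of the 4 arrays and the mean with its SD in black. RYR1, CACNA1S, CACNB1, JPH1, CASQ1 and ATP2A1 lie above 0 on all 4 arrays, and TRDN, CASQ2 and ATP2A2 lie on both sides of 0.

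The release channel RYR1 had 17 probes on chromosome 10 of the build EquCab1, all placed on 1 transcript. Only 9 were tested, since for the other 8 neither channel stood well above background on every array. The brightest probe started at base 14885 of the transcript (chr10:9601207-9601411, an interval longer than the probe, so that it crosses an intron). Its as-scanned signal was 329.7, 287.3, 239.8 and 267.7 in the control and 593.4, 369.8, 323.1 and 362.0 in the treated ESC on replicates 1 to 4. The treated signal was above the control signal on every array, and the lowest treated value lay below the highest control value. After normalisation the log2 ratio was 0.66, 0.23, 0.28 and 0.49, with a mean of 0.41 ± 0.20 (SD, n = 4; 1.33-fold; adjusted p = 0.0226, limma).

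The ratios of the RYR1 probes differed along the transcript. All 6 probes that started between bases 14587 and 14903 passed as higher, with mean log2 ratios from 0.34 to 0.46 and adjusted p-values from 0.016 to 0.0291 (limma). The 5 overlapping ones among them count as 1 measurement, with a mean over their probes of 0.61, 0.22, 0.42 and 0.35 on the 4 arrays. The sixth, A_69_P005386 at chr10:9600234-9600293, does not overlap them and had log2 ratios of 0.44, 0.22, 0.40 and 0.34 (mean 0.35 ± 0.10 SD, n = 4; adjusted p = 0.016, limma).

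Towards the start of the same transcript no RYR1 probe passed. The 3 tested probes between bases 1187 and 1868 had mean log2 ratios of -0.02, 0.03 and -0.04, with limma adjusted p-values of 0.84, 0.628 and 0.463. The 95% intervals of these 3 probes reached at most 0.13, below the mean of every probe at the other end, but the difference between the ends was not tested. The probe at base 2845, A_69_P114971, was well above background on 2 arrays in the control and on 1 in the treated ESC and was not tested (log2 ratios -0.02, -0.01, -0.13 and -0.07). The 7 probes between bases 6408 and 7415 were not above background on any array in either channel, and have no fold change. The probes at the start were dim, with signals of 83.2 to 176.0 over both channels, and the offset added to the signals shrinks the ratios of dim probes.

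**Figure D2:**
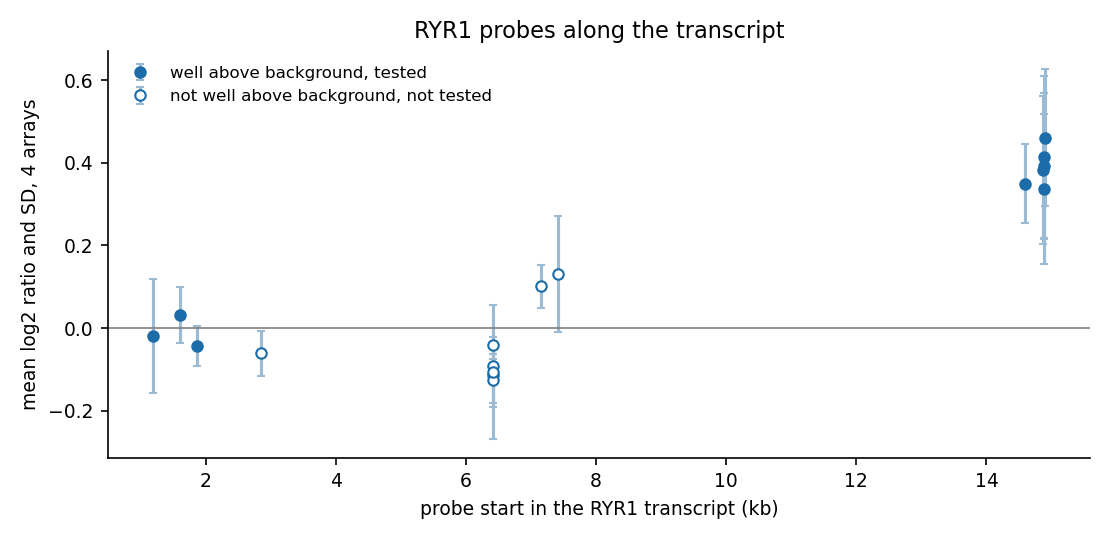
Mean log2 ratio with its SD over 4 arrays (y axis) of the 17 RYR1 probes by their start in the transcript in kilobases (x axis). Filled points were tested and open points were not well above background. The 6 probes at the far end lie between 0.34 and 0.46, and the 3 tested probes near the start lie between -0.04 and 0.03.

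The voltage sensor is made of CACNA1S, the pore-forming subunit, and CACNB1, its beta subunit. CACNB1 had 1 probe (chr11:21838492-21841020, crossing an intron). Its signal was 569.5, 497.0, 401.2 and 487.1 in the control and 795.3, 623.6, 501.5 and 596.8 in the treated ESC. Every treated value was higher than the control value of its array, although the groups overlapped. The log2 ratio was 0.30, 0.11, 0.11 and 0.22 (mean 0.19 ± 0.089 SD, n = 4; 1.14-fold; adjusted p = 0.0423, limma). Of the 5 release and uptake genes that passed, CACNB1 was the nearest to the threshold. Its adjusted p was above 0.05 in 10 of the 17 alternatives and ranged from 0.0311 to 0.801.

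CACNA1S had 3 probes on chromosome 30, of which 1 was tested (chr30:18328141-18329401). Its signal was 303.8, 257.8, 216.1 and 249.4 in the control and 352.4, 275.3, 231.8 and 249.0 in the treated ESC. The log2 ratio was 0.13, 0.0054, 0.02 and 0.12, positive on all 4 arrays but not past the threshold (mean 0.07, 95% interval -0.03 to 0.17, adjusted p = 0.274, limma). The other 2 probes, 1 of which the files also assign to transcripts other than those of CACNA1S, were well above background on 1 or 2 arrays in the control and on 2 or 3 in the treated channel. Their log2 ratios were -0.04, 0.33, 0.18 and -0.09 for A_69_P006071 and -0.06, -0.15, 0.17 and -0.10 for A_69_P006076, on both sides of 0.

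At the junction of the membranes, JPH1 and TRDN had different values. JPH1, named by description, had 3 probes on chromosome 9, and 1 was tested (chr9:12323772-12323831). Its signal was 135.9, 130.6, 119.6 and 158.7 in the control and 137.2, 117.8, 121.4 and 161.4 in the treated ESC. These raw signals differed little between the channels, and on replicate 2 the control signal was the higher. The normalised log2 ratio was 0.13, 0.14, 0.26 and 0.20 (mean 0.18 ± 0.064 SD, n = 4; 1.14-fold; adjusted p = 0.0347, limma), so that on replicate 2 the normalised ratio and the raw signals of JPH1 had opposite directions. In 9 of 17 alternatives the adjusted p was above 0.05, and the ratio was 0.50 with the processed signals of the scanner software. The other JPH1 probes were above background on at most 2 arrays in a channel and were not tested. Their log2 ratios were 0.15, 0.0070, 0.30 and 0.16 for A_69_P043397 and 0.0044, 0.02, 0.04 and -0.08 for A_69_P043398.

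TRDN had 1 probe (chr10:65477222-65477281). Its signal was 150.3, 158.8, 133.2 and 132.3 in the control and 149.6, 129.4, 105.4 and 104.0 in the treated ESC. The log2 ratio was 0.06, -0.13, -0.0069 and 0.04. These values lay on both sides of 0, with a mean of -0.0093 and a 95% interval from -0.12 to 0.10 (adjusted p = 0.903, limma). The sign of TRDN turned with array weights and without replicate 2.

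For the calcium store, CASQ1, the calsequestrin of fast muscle, rose. Its probe lies on unplaced sequence (chrUn:172315975-172316034). The signal was 278.8, 286.0, 230.8 and 331.1 in the control and 395.2, 350.7, 290.4 and 392.9 in the treated ESC. The treated value was the higher on all 4 arrays, and the groups overlapped. The log2 ratio was 0.36, 0.17, 0.22 and 0.24 (mean 0.25 ± 0.079 SD, n = 4; 1.19-fold; adjusted p = 0.0225, limma). CASQ2, the calsequestrin of heart and slow muscle, did not pass. Its probe (chr5:30606405-30607456, crossing an intron) gave 5403, 4637, 3633 and 4819 in the control and 6543, 5619, 4624 and 5247 in the treated ESC. The raw treated signal of CASQ2 was thus higher on each array, while the normalised log2 ratio was -0.0015, -0.12, 0.05 and -0.09 (mean -0.04, 95% interval -0.15 to 0.07, adjusted p = 0.568, limma).

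For the uptake pumps, ATP2A1, the pump of fast fibres, had the highest ratio of the genes described. Its brightest probe (chr13:7297714-7297773) gave 1680, 1351, 1028 and 1593 in the control and 2905, 2100, 1829 and 2432 in the treated ESC. All 4 treated values lay above all 4 control values. The log2 ratio was 0.56, 0.32, 0.55 and 0.45 (mean 0.47 ± 0.11 SD, n = 4; 1.39-fold; adjusted p = 0.0125, limma).

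The other 5 ATP2A1 probes started 1 base apart and shared 56 of their 60 bases, so that they are 1 measurement repeated. They were dim, at 98.2 to 203.4 over both channels, and the first lies at chr13:7298070-7298553. On replicate 4 the raw treated signal of all 5 was below the control signal, and the normalised ratio was above 0. The same held on replicate 2 for A_69_P002020 and A_69_P002018, and on replicate 3 for A_69_P002020, A_69_P002019 and A_69_P002018. Their log2 ratios were positive on all arrays, with means from 0.17 to 0.30, and 4 of the 5 passed. A_69_P002017 was the exception (0.28, 0.15, 0.39 and 0.03; adjusted p = 0.0631, limma). A_69_P002019 was well above background in the control on 3 of 4 arrays only. Averaged over the 5 probes, the log2 ratio was 0.31, 0.23, 0.28 and 0.14, lower on each array than that of the brightest probe. The array lists these 5 probes under a different transcript identifier from that of the brightest probe.

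ATP2A2, the pump of slow fibres and of most other cells, had 1 probe (chr8:21312939-21312998). It gave 3396, 2471, 1767 and 2509 in the control and 3475, 3188, 2120 and 2756 in the treated ESC. The log2 ratio was -0.21, 0.0067, -0.03 and -0.04, with a mean of -0.07 and a 95% interval from -0.18 to 0.05 (adjusted p = 0.347, limma). Over the 10 probes of the 5 genes named by symbol, all were tested, 8 were above 0 on all 4 arrays and 7 passed. Of the 24 probes named by description, 12 were tested, 8 of these were above 0 on all 4 arrays and 7 passed. Over all tested probes 22.6% were above 0 on all 4 arrays. The counts by symbol include the 5 overlapping ATP2A1 probes, and those by description the 5 overlapping RYR1 probes. Each of these sets is 1 measurement, so that the probe counts are not counts of independent results.

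The isoforms of fast muscle were then compared with their counterparts on the same arrays. ATP2A1 exceeded ATP2A2 by 0.77, 0.31, 0.58 and 0.49 on the log2 scale of the ratios (mean 0.54 ± 0.19 SD, n = 4 arrays; two-sided exact sign-flip permutation test, p = 0.125). CASQ1 exceeded CASQ2, which is named by description, by 0.36, 0.29, 0.17 and 0.33 (mean 0.28 ± 0.083 SD, n = 4 arrays; the same exact test, p = 0.125). Both differences were positive on 4 of 4 arrays, and 0.125 is the smallest p that 4 arrays allow, so that this test cannot reach 0.05. Adjusted over the 2 pairs, both exact p-values stayed at 0.125. Averaging all probes of a gene lowered the ATP2A1 difference to 0.35.

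**Figure D3:**
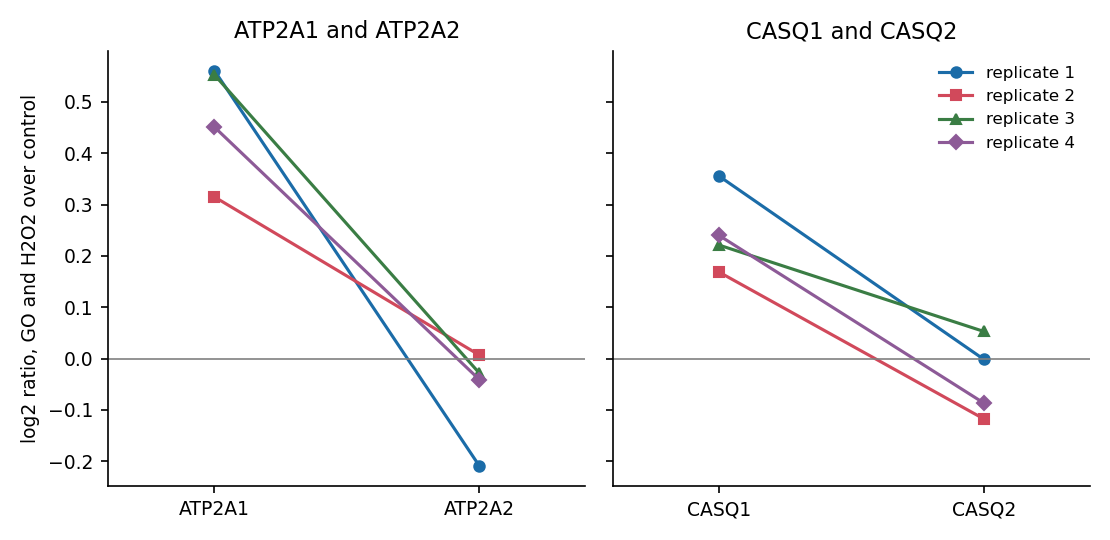
Log2 ratio of treated over control ESC (y axis) of ATP2A1 and ATP2A2 (left) and of CASQ1 and CASQ2 (right), with a line for each array. Every line falls from the fast isoform to its counterpart, by 0.31 to 0.77 on the left and by 0.17 to 0.36 on the right.

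Among 70 further genes of calcium handling, 48 could be tested, and 7 rose and 3 fell (14.6% and 6.25%, beside 9.49% and 7.59% of all tested probes). Their median log2 ratio was 0.05. Without replicate 1, 3 or 4, 0 of them passed in limma, with 14, 20 and 15 at an unadjusted p under 0.05, and without replicate 2 there were 10. A gene is given by its brightest tested probe, and mean log2 ratios carry the SD of 4 arrays.

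The other proteins of the release complex and the triad (25 genes, 17 tested) had 3 that rose and 1 that fell. S100A1, a calcium-binding protein that acts on the ryanodine receptor, rose by 0.39 ± 0.077 (adjusted p = 0.0129). FKBP1A, which steadies the closed release channel, rose by 0.24 ± 0.040 (adjusted p = 0.0186), with 9 of its 10 probes past the threshold. CAV3, the caveolin of muscle membranes, rose by 0.35 ± 0.14 (adjusted p = 0.0198). CALM2, which encodes calmodulin, fell by 0.21 on the log2 scale (adjusted p = 0.034), on both of its probes. CACNB3, another beta subunit of the channel, was bright and did not pass (0.15, adjusted p = 0.0571). All these adjusted p-values are from limma.

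Of the genes of storage and uptake (9 genes, 6 tested), HRC, the histidine-rich calcium-binding protein of the store, was the only one past the threshold (0.44 ± 0.17, adjusted p = 0.0171, limma). Its log2 ratio was 0.68, 0.38, 0.42 and 0.29 on replicates 1 to 4. The calcium-binding chaperone CALR was at -0.04 (adjusted p = 0.657, limma) and CALU at -0.10 (adjusted p = 0.229, limma), although 1 of the 2 CALU probes passed as lower.

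Calcium routes outside the release apparatus (22 genes, 14 tested) were divided, with 2 higher and 2 lower. ATP2B1, a calcium pump of the plasma membrane, was called as higher from its brightest probe (0.23 ± 0.088, adjusted p = 0.0276), but its probes disagreed, since the other 2 of the 3 tested had a mean below 0 and did not pass. ORAI1, the pore of store-operated entry, rose by 0.20 ± 0.11 (adjusted p = 0.0431). SLC8A3, a sodium-calcium exchanger, had a mean of -0.22 ± 0.055 (adjusted p = 0.0239) and passed as lower. Only 1 of the 9 SLC8A3 probes was tested, and it was dim, with a mean log2 signal of 7.10. ITPR1, the inositol trisphosphate receptor, passed as lower with -0.23 ± 0.15 (adjusted p = 0.0497), on both of its probes. MICU2 and MCUR1, of the mitochondrial uniporter, were at -0.10 and -0.14 and did not pass (adjusted p = 0.177 and 0.105). These adjusted p-values are from limma.

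In calcium-dependent signalling (14 genes, 11 tested), CAMK2A, a subunit of the calcium- and calmodulin-dependent kinase, was the only gene past the threshold (0.21 ± 0.11, adjusted p = 0.0418, limma). CAMK2D was at 0.09 (adjusted p = 0.431, limma) and the calcineurin subunit PPP3CB at 0.06 (adjusted p = 0.341, limma). PPP3R1, another calcineurin subunit, is named after its values were seen. It did not pass at its brightest probe (0.18, adjusted p = 0.0599, limma), although 2 of its 4 tested probes passed as higher.

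**Figure D4:**
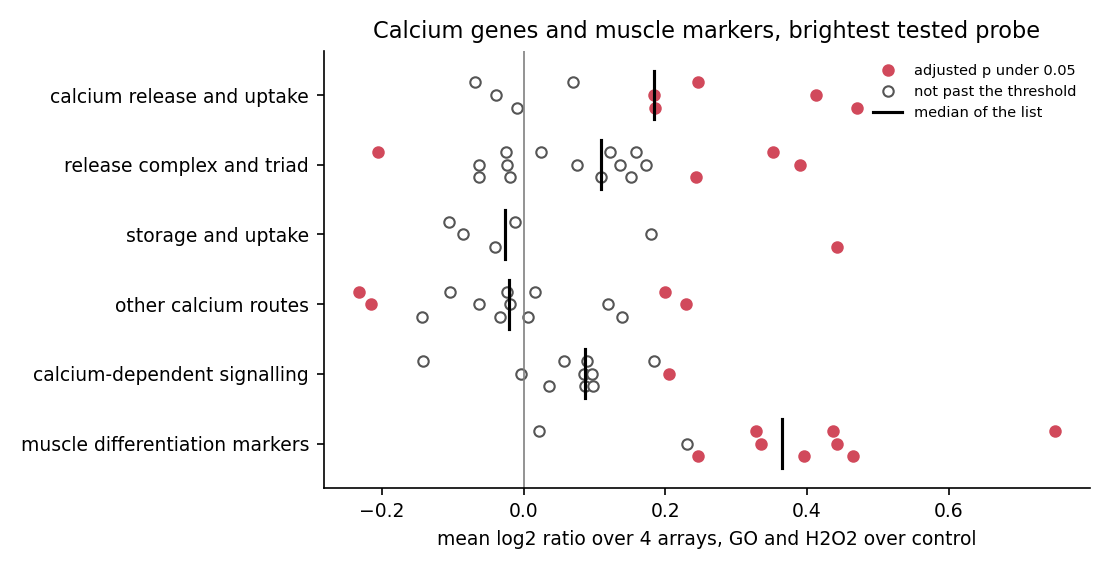
Mean log2 ratio over 4 arrays (x axis) of each tested gene, by list (y axis), with filled points for genes past the limma threshold and a bar for the median of each list. The 9 calcium release and uptake genes have a median of 0.18, the muscle differentiation markers one of 0.37, and the 4 lists of further calcium genes medians between -0.03 and 0.11. Markers of myoblasts and of other cell types are not drawn.

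Markers of differentiating muscle moved in the same direction. All 10 of these markers were tested and had a mean above 0, and 8 rose, with a median log2 ratio of 0.37. ACTC1, the embryonic muscle actin, rose by 0.44 ± 0.066, MYL1, a myosin light chain, by 0.40 ± 0.063, and TNNT3, the troponin T of fast muscle, by 0.44 ± 0.10, with limma adjusted p-values of 0.0114, 0.0124 and 0.0125. Their summed normalised signal was 360174 to 394183 in the control and 447175 to 517840 in the treated ESC, without overlap. Before summing, the average intensities of the 4 arrays were also given the same distribution, which removes differences in brightness between arrays. On the linear scale of the sum the brightest markers weigh most. None of the muscle markers was at background. Of the 4 myoblast markers 3 were tested, PAX7 was not above background, and CDH15, a cadherin of satellite cells, rose by 0.28 ± 0.10 (adjusted p = 0.0221, limma). The part of differentiation in the change of the calcium genes was not tested.

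Markers of other cell types were counted beside them. Of 7 fibroblast markers 6 were tested, with 1 higher and 1 lower past the threshold. Their median log2 ratio was 0.24, above the 0.18 of the 9 calcium release and uptake genes, and their summed signal overlapped between control (326509 to 404271) and treated ESC (394689 to 468800). This median rests on brightest probes, and the collagen probes disagreed. Of 9 tested COL1A2 probes 4 had a mean above 0 and 5 below, and of 7 COL3A1 probes 4 above and 3 below. The fibroblast markers did not move together, as values named after they were seen show. LUM passed as lower (-0.43 ± 0.10, adjusted p = 0.0131, limma), on all 6 of its probes. THY1 passed as higher (0.28 ± 0.14, adjusted p = 0.029, limma). DCN was at -0.10 and did not pass (adjusted p = 0.127, limma). PDGFRA was not above background. None of the endothelial markers (PECAM1, CDH5, KDR and VWF) and none of the adipocyte markers with a probe (ADIPOQ, PLIN1 and FABP4) was above background. Of the smooth muscle and pericyte markers MYH11, RGS5 and NOTCH3 were not above background, and the 1 tested did not pass. All 3 leukocyte markers were tested, with 1 higher and 1 lower, and their summed signal was 14396 to 16092 in the control and 18436 to 20530 in the treated ESC. PTPRC weighs most in this sum, with a mean log2 signal of 13.7, beside 11.8 for CD14 and 7.28 for CD68. CD14, also named after its values were seen, passed as lower (-0.17 ± 0.061, adjusted p = 0.0385, limma). CD68 was at 0.0049 and did not pass, so that the 3 markers did not move together. PTPRC, the leukocyte marker that passed as higher and is named after its values were seen, had a log2 ratio of 0.53 ± 0.055 (SD, n = 4; adjusted p = 0.00632, limma), above that of each calcium release and uptake gene. Of its 15 probes 7 were tested, 6 of these passed as higher, and 1 had a mean below 0. The part of other cell types in the result was not tested.

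The arrays differed in how closely they followed each other. Across the 24230 tested probes, which are not independent, Pearson's r between the log2 ratios of 2 arrays was 0.17 to 0.70. From 54.9% to 61.4% of gene spots were well above background per array and channel. No gene spot was saturated.

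**Figure D5:**
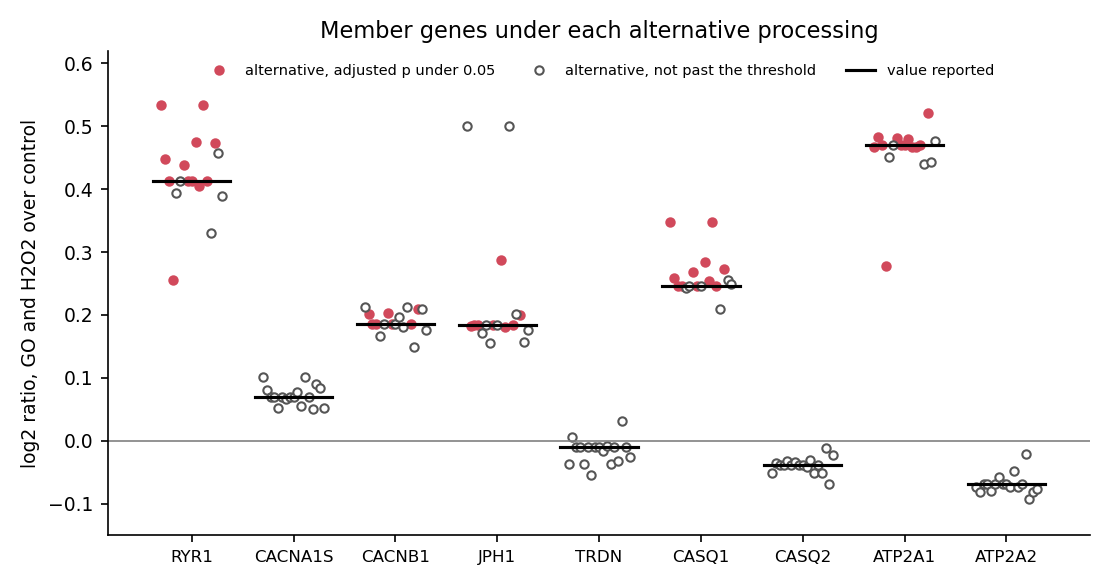
Log2 ratio of treated over control ESC (y axis) of each gene (x axis) under 17 alternative ways of processing, filled where the adjusted p was under 0.05, with the reported value as a bar. RYR1, CACNA1S, CACNB1, JPH1, CASQ1 and ATP2A1 stay above 0 and CASQ2 and ATP2A2 below 0 throughout, whereas the calls are lost under 5 alternatives for RYR1 and ATP2A1 and under more for the others. Alternatives that change only the test or the filter repeat the reported ratio, so that its sign could not turn there.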

How the data were processed

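Gene expression was measured on 4 two-colour Agilent horse arrays of 1 slide. The authors deposited spot intensities as scanned and processed, extracted with Feature Extraction version 10.10.1.1, and log10 ratios of processed red over green, per the file headers. The deposited series matrix holds the same log10 ratios (largest difference 0, median 0 on each array).

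Mean intensities were corrected against the background median (normexp, offset 50) and normalised by loess within each array, with control spots at weight 0. Spots with an outlier mark were left out, and spots of a probe were averaged. For the summed marker signals and the fit with no replicate block, the average intensities were also given the same distribution on all arrays (Aquantile). A probe was tested where at least 1 channel stood well above background on each of the 4 arrays (24230 of 43603 probes, 55.6%). The offset shrinks the ratios of dim probes. The log2 ratios were tested against 0, two-sided, with limma 3.58.1 in R 4.3.3 and Benjamini-Hochberg adjustment over all tested probes, threshold 0.05. Each array pairs 1 treated with 1 control RNA, as the labels give it, and the ratio keeps this pairing. The script was tested on simulated data. The number of arrays limits the precision.

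A gene is called by its brightest tested probe. Probes were matched by gene symbol, or else by the gene's full name in the description. Coordinates are those of the files (EquCab1), and exons and UTRs were not assigned. The genes, lists and tests were chosen with earlier results of these data known. Named are all probes of the 9 genes found or their ranges, at most 3 genes per further list and direction with the smallest p, and at most 2 bright genes per list that did not pass. A gene that this rule names is not reported here. Alternatives covered background, normalisation, filter, test and each array left out. The study's fold and test results were not used.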

Additional observations from a re-analysis of the deposited data

Results flagged for a closer look

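Among 46 sets of 4 log2 ratios examined for a value far from the others, 2 held one. In the overlapping ATP2A1 probe A_69_P002016, replicate 4 was at 0.15, whereas the other arrays were at 0.33 to 0.35. In SLC8A3, replicate 4 was at -0.30, whereas the other arrays were at -0.19 (both the lowest and the highest of them, rounded). Chance alone marks about 1 in 20 such sets.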

How the results depend on the processing

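The log2 ratios of RYR1, CACNA1S, CACNB1, JPH1, CASQ1, CASQ2, ATP2A1 and ATP2A2 kept their sign under all 17 alternatives. Alternatives that change only the test or the filter repeat the reported ratios, so that a sign could not turn there. The log10 ratios of the series matrix gave the same counts as the scanner's processed signals. The largest difference between them at a gene spot was 0.17 on the log10 scale. TRDN turned to 0.0058 with array weights and to 0.032 without replicate 2, with -0.032 to 0.032 over the arrays left out, and did not pass under any. Median centring in place of loess left 12 probes, 0 of the 5 genes named by symbol, 0 of the 4 named by description and 0 of the further calcium genes past the threshold, and the methods' t-test left 5, 0, 0 and 0; at an unadjusted p under 0.05 these fits had 1571 and 6930 probes, 2 and 3 genes named by symbol, 1 and 2 named by description, and 5 and 13 further genes. With no replicate block, that is with the pairing on the array ignored, 594 probes, 1 gene named by symbol, 1 named by description and 4 further genes passed. Leaving out 1 array gave 0 to 3899 probes, 0 to 3 genes named by symbol, 0 to 2 named by description and 0 to 10 further genes. Without background correction, with the scanner's processed signals and with the log10 ratios of the series matrix, 1 gene named by description passed. Adding the genes named by description, chosen after seeing the data like the alternatives for those genes, gave 5 genes past the threshold. The median of the genes named by symbol was 0.15 to 0.21, which is the range of CACNB1 alone. Both isoform differences stayed above 0 (0.35 to 0.61 and 0.26 to 0.40). The causes of these shifts were not tested. With 8 of 17 RYR1 probes not well above background, signal limits what can be said of its start and middle.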
